A study of Caenorhabditis elegans with 6 samples.

Results

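The genes examined here were 10 *C. elegans* genes of acetylcholine synthesis and synaptic vesicle release, chosen by symbol: *unc-17*, *cha-1*, *cho-1*, *unc-13*, *unc-18*, *snb-1*, *snt-1*, *unc-64*, *ric-4* and *rab-3*. All 10 were found among the 46726 gene identifiers in the count files, and all 10 were among the 12335 genes with enough reads to be tested. Poly(A) RNA was sequenced from whole animals of 2 strains, with 3 biological replicates each, to ask how loss of the splicing factor MBL-1 alters gene expression. The strains were *mbl-1(tm1563)* mutants, which carry a deletion in an exon present in every *mbl-1* transcript, and N2, the wild-type strain. Animals of both strains were grown at 20 °C from synchronized L1 larvae on HT115 bacteria with the empty RNAi vector. Both were moved to 10 μM 5-fluorouracil, which keeps progeny from hatching, as L4 larvae and were collected as day 2 adults. The mutation was present in every tissue.

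Acetylcholine is the main excitatory transmitter at the *C. elegans* neuromuscular junction, where motor neurons release it onto body wall muscle. It is made from choline, packed into synaptic vesicles and released when a vesicle SNARE protein pairs with SNARE proteins of the plasma membrane. Docking and priming factors prepare the vesicle for that step, a calcium sensor triggers it, and choline is then taken back into the terminal. The proteins that make and load acetylcholine are particular to cholinergic neurons, whereas the vesicle release proteins serve neurons of all transmitter types and some of them are also used in other secretory cells.

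The libraries held 17722502 to 18125452 counts on genes in the mutants and 17574738 to 20750318 in N2, and 17078 to 17564 genes were detected per library. Levels are given as CPM, each count divided by the size of its library and scaled by the trimmed mean of M-values (TMM), and fold changes as log2 of mutant over N2. Replicate 1 of the mutants stood apart in how levels followed transcript length. When the tested genes were ranked by exon length and split into 5 bins, its median deviation from the 6-library mean in the longest bin minus that in the shortest was -0.45 on the log2 scale, against 0.17 and -0.06 in the other mutant libraries and 0.05, 0.12 and 0.15 in the N2 libraries. Over all tested genes, the median log2 fold change was 0.04 in the shortest bin and -0.17 in the longest. For the 10 genes and the lists, values without that library or after a correction for length are given beside those they moved the most. Markers of neurons, body wall muscle, intestine, hypodermis and germline were all present, as whole animals require. In such bulk RNA, fewer cells of a type and less RNA per cell cannot be told apart. The replicates are described as biological, but nothing names separate cultures, so the tests measure the spread between these libraries.

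**Figure D1:**
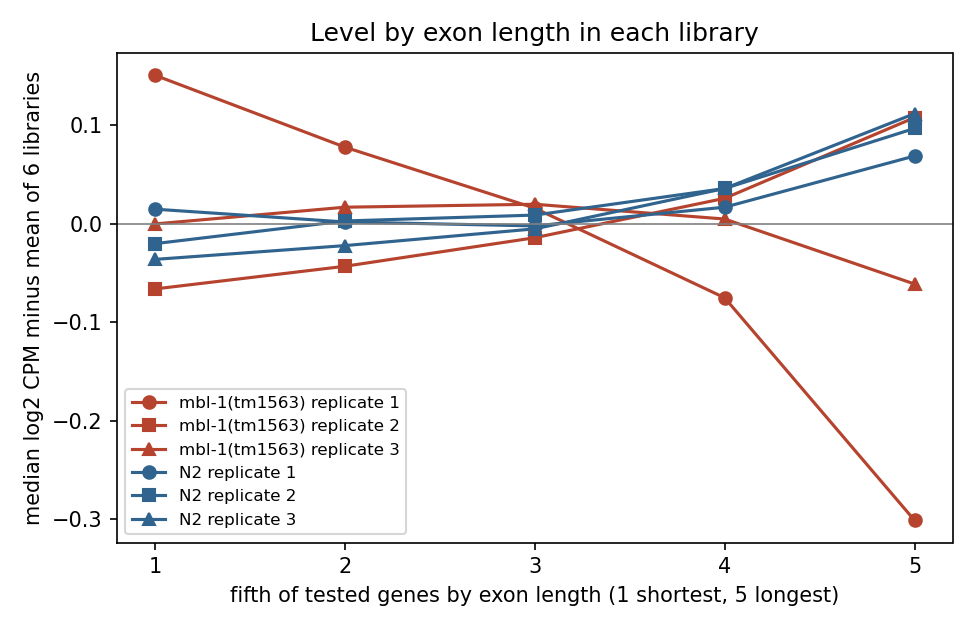
Median deviation of log2 CPM from the mean of the 6 libraries (vertical axis) in 5 bins of tested genes ranked by exon length (horizontal axis), with a line for each library. Replicate 1 of the mutants declines toward the longest genes, whereas the 3 N2 libraries are slightly higher in the longest bin than in the shortest.

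The mutated gene was examined first. *mbl-1* (WBGene00019347) had 70, 138 and 106 counts in the mutant libraries, against 233, 245 and 228 in the N2 libraries. This corresponded to 5.75 ± 2.11 CPM in mutants and 12.7 ± 0.72 CPM in N2 (SD, n = 3 each), and the strains did not overlap. The log2 fold change was -1.14 (SE 0.24, edgeR quasi-likelihood adjusted p = 0.0382). Counts per gene do not separate the deleted exon from the rest of the transcript, so the remaining reads do not report on the deletion. Without mutant replicate 3 or any N2 replicate the adjusted p lay between 0.105 and 0.16, and over all 6 left-out libraries the estimate lay between -1.39 and -0.89.

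None of the 10 genes was called as changed, at an adjusted p under 0.05 and at least a 2-fold change, in a test in which 1.82% of all genes were called (1.14% lower and 0.681% higher in mutants). With the adjusted p alone, 0 of the 10 passed in either direction, beside 5.35% of all genes, 3.58% lower and 1.77% higher in mutants. At an unadjusted p under 0.05, 4 of the 10 were lower (*cha-1*, *unc-13*, *unc-18* and *rab-3*) and 0 were higher, against 13.9% of all genes lower and 9.81% higher. DESeq2 also gave 0 of the 9 members with an adjusted p, and 2 members at an unadjusted p under 0.05. The estimate was negative for 8 members, with a median log2 fold change of -0.34 over the 10 genes and -0.04 over all genes tested, of which 55.2% were negative. After the length correction these medians were -0.17 and 0.01, and without mutant replicate 1 they were -0.27 and -0.02.

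**Figure D2:**
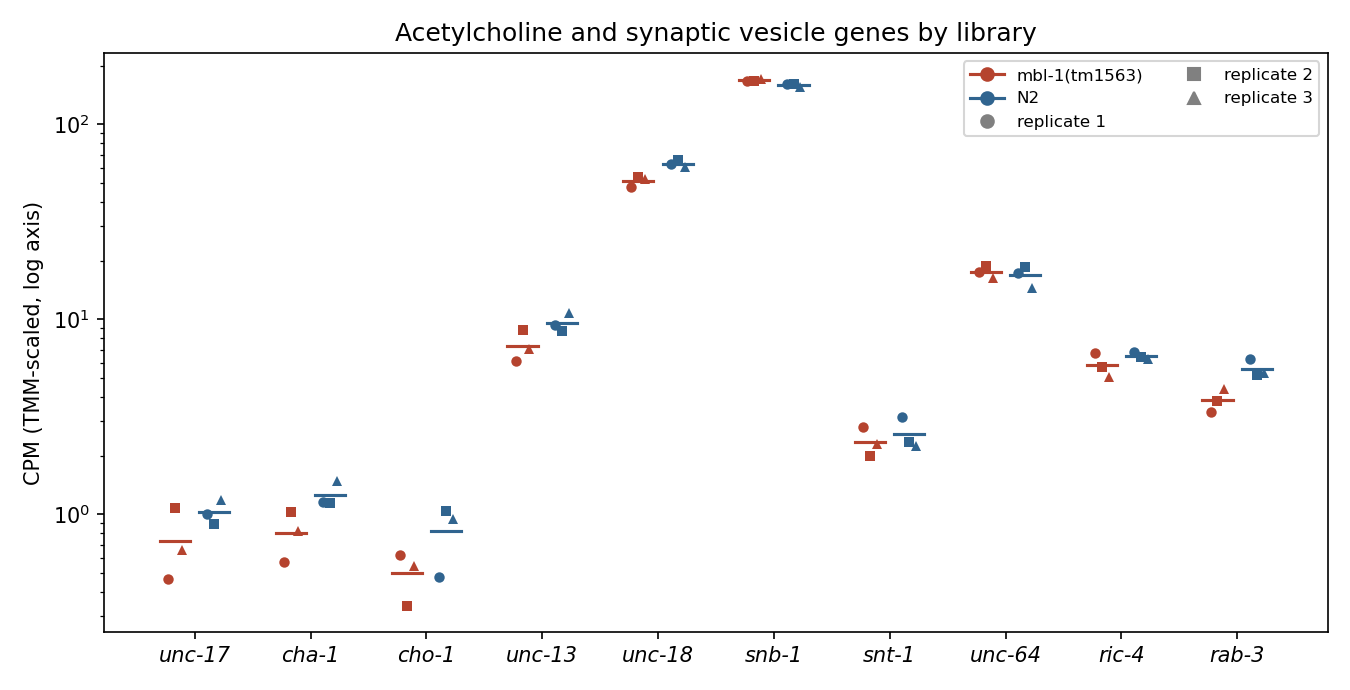
CPM of each of the 10 genes in every library on a log axis, with mutants left of N2 for each gene, markers for replicates and bars for group means. *unc-18*, *rab-3* and *cha-1* are lower in all 3 mutant libraries than in any N2 library, *snb-1* is slightly higher in all 3, and the other genes overlap.

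Per kilobase of exon, the genes spanned a wide range of levels. *snb-1* was the most abundant, at 209 ± 2.07 CPM per kb in mutants and 197 ± 3.6 CPM per kb in N2 (SD, n = 3 each). Next came *unc-18*, with a mean of 19.3 CPM per kb in mutants and 23.6 in N2, and *unc-64*, with 7.0 in mutants and 6.71 in N2. *ric-4* averaged 4.70 CPM per kb in mutants and 5.25 in N2, and *rab-3* averaged 2.86 in mutants and 4.14 in N2. *snt-1*, at 1.23 CPM per kb in mutants and 1.34 in N2, and *unc-13*, at 1.07 in mutants and 1.40 in N2, followed, and *cha-1*, *unc-17* and *cho-1* were the lowest, at 0.40, 0.395 and 0.256 CPM per kb in mutants and 0.629, 0.553 and 0.418 in N2. Over the 6 libraries, neighbours in this order were separate except for *ric-4* and *rab-3*, *snt-1* and *unc-13*, *cha-1* and *unc-17*, and *unc-17* and *cho-1*. The genes specific to cholinergic neurons were the least abundant of the set in these whole animals, and the vesicle SNARE the most abundant.

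The gene pair that makes and loads acetylcholine was measured from few reads. *cha-1* (WBGene00000481, WBcel235 chromosome IV: 3613931-3624697, minus strand) encodes choline acetyltransferase, the enzyme that makes acetylcholine from choline and acetyl-CoA. It had 0.569, 1.02 and 0.819 CPM in mutant libraries, against 1.16, 1.14 and 1.48 CPM in N2 libraries. No mutant library reached the lowest N2 library, from 11, 18 and 15 reads in mutants and 22, 23 and 25 reads in N2. *cha-1* had a log2 fold change of -0.65 (SE 0.28, 95% interval -1.30 to -0.01), with an edgeR p of 0.0486 and an adjusted p of 0.208. It was -0.45 without mutant replicate 1, with an adjusted p of 0.384.

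*unc-17* (WBGene00006756, chromosome IV: 3618259-3624699, minus strand) encodes the vesicular acetylcholine transporter, which fills synaptic vesicles, and lies in the same locus as *cha-1*. Its level was 0.466, 1.08 and 0.655 CPM in mutant libraries and 1.0, 0.896 and 1.18 CPM in N2 libraries. Mutant replicates 1 and 3 were below the N2 range, whereas mutant replicate 2 lay inside it. For *unc-17* the log2 fold change was -0.49 (SE 0.34, 95% interval -1.28 to 0.29, edgeR adjusted p = 0.401). It was -0.24 (adjusted p = 0.702) without mutant replicate 1 and -0.82 (adjusted p = 0.124) without mutant replicate 2. The library with the fewest *unc-17* reads, mutant replicate 1, had 9, for which the exact Poisson 95% interval is 4.12 to 17.1 reads, covering counting error only. The exons of *unc-17* and *cha-1* share 66 bases on the same strand. Reads that fell there were counted for neither gene if they could not be assigned.

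The ratio of *unc-17* to *cha-1* CPM was 0.818, 1.06 and 0.80 in mutant libraries, against 0.864, 0.783 and 0.80 in N2 libraries. Both genes were lowest in mutant replicate 1, and their levels followed each other over the 6 libraries with Pearson's r of 0.95. Both also followed *unc-13*, which was likewise lowest in mutant replicate 1, with r of 0.98 for *cha-1* and 0.97 for *unc-17*. These pairs had the highest r of the 45 pairs of members. With the strain means taken out, r was 0.95 for *unc-17* and *cha-1*, 0.96 for *cha-1* and *unc-13* and 0.98 for *unc-17* and *unc-13*. These correlations are descriptions over 6 libraries, from levels not corrected for length. The part of other differences between the libraries, such as the trend with exon length in mutant replicate 1, was not tested.

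*cho-1* (WBGene00000501, chromosome IV: 13209730-13214566, minus strand) encodes the high-affinity choline transporter that returns choline to cholinergic terminals. It had 0.621, 0.341 and 0.546 CPM in mutant libraries and 0.475, 1.05 and 0.947 CPM in N2 libraries, from 6 to 12 reads in mutants and 9 to 21 in N2. N2 replicate 1 lay within the mutant range, and the other N2 libraries lay above it. The estimate was a log2 fold change of -0.69 (SE 0.39, 95% interval -1.62 to 0.22, edgeR adjusted p = 0.318). Leaving out single libraries moved it between -0.97, without N2 replicate 1, and -0.44, without mutant replicate 2. Together, the 3 acetylcholine-specific genes held 32, 43 and 37 reads in mutant libraries against 50, 62 and 61 in N2 libraries. At this depth a 2-fold reduction lay inside the 95% interval of each of the 3 genes, whereas it lay outside the interval of the other 7.

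The SNARE genes, whose proteins form the complex that fuses vesicles with the plasma membrane, differed little between strains. *snb-1* (WBGene00004897, chromosome V: 6655562-6656501, minus strand) encodes synaptobrevin, the vesicle SNARE. Its level was 167, 167 and 170 CPM in mutant libraries, against 161, 160.1 and 155 CPM in N2 libraries. The 3 mutant libraries lay above the 3 N2 libraries, with the strains separate by a narrow margin, and *snb-1* was the only member higher in all mutant libraries, where 14.7% of all genes were. The log2 fold change was 0.09 (SE 0.06, 95% interval -0.05 to 0.22, edgeR adjusted p = 0.401). *snb-1* supplied 66.0, 63.7 and 65.6% of the counts of the 10 genes in mutant libraries and 59.8, 59.3 and 60.0% in N2 libraries.

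*unc-64* (WBGene00006798, chromosome III: 13277258-13283887, plus strand) encodes syntaxin, a SNARE of the plasma membrane. It had 17.6, 18.8 and 16.3 CPM in mutant libraries and 17.4, 18.5 and 14.6 CPM in N2 libraries, so the strains overlapped throughout. The log2 fold change was 0.06 (SE 0.12, 95% interval -0.22 to 0.33, edgeR adjusted p = 0.778). Without N2 replicate 3, its lowest library, the estimate was -0.03, and after the length correction it was 0.17.

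*ric-4* (WBGene00004364, chromosome V: 10261131-10270314, minus strand) encodes the SNAP-25 protein, the other SNARE of the presynaptic plasma membrane. Its level was 6.73, 5.68 and 5.08 CPM in mutant libraries and 6.81, 6.42 and 6.27 CPM in N2 libraries. Mutant replicate 1 was within the N2 range and the other mutant libraries were below it. For *ric-4* the log2 fold change was -0.16 (SE 0.14, 95% interval -0.48 to 0.17, edgeR adjusted p = 0.511). It was -0.27 without mutant replicate 1, -0.09 without mutant replicate 2 and -0.07 without mutant replicate 3.

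*snt-1* (WBGene00004921, chromosome II: 6810963-6816433, plus strand) encodes synaptotagmin, a calcium sensor on the vesicle that also takes part in vesicle recycling. It had 2.80, 1.99 and 2.29 CPM in mutant libraries, against 3.17, 2.34 and 2.25 CPM in N2 libraries. The strains overlapped, and the log2 fold change was -0.13 (SE 0.21, 95% interval -0.62 to 0.36, edgeR adjusted p = 0.722). Its sign turned when mutant replicate 2 (0.02) or N2 replicate 1 (0.04) was left out, and it was -0.27 without mutant replicate 1 and -0.07 after the length correction.

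None of the docking, priming and Rab genes passed the adjusted p. *unc-18* (WBGene00006757, chromosome X: 7682896-7686037, plus strand) encodes the Sec1/Munc18 protein that binds syntaxin and is needed for docking. Its level was 47.8, 54 and 52.2 CPM in mutant libraries, against 62.3, 65.9 and 60.5 CPM in N2 libraries. The strains were separate, with 923 to 957 reads per mutant library and 1023 to 1324 per N2 library, and the log2 fold change was -0.29 (SE 0.08, 95% interval -0.47 to -0.12), with an edgeR p of 0.00547 and an adjusted p of 0.0718. It passed the adjusted p without mutant replicate 1 (-0.24, adjusted p = 0.0339) and without mutant replicate 2 (-0.29, adjusted p = 0.0477), whereas the other 4 left-out libraries gave adjusted p of 0.194 to 0.226. After the length correction it was -0.17, with an adjusted p of 0.132. The 95% intervals of *unc-18*, *snb-1*, *unc-64* and *ric-4* all lay within a 1.5-fold change in either direction.

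*unc-13* (WBGene00006752, chromosome I: 7422785-7454116, plus strand) encodes the priming factor that makes docked vesicles ready for fusion, and it has 11 annotated transcripts and the longest exon sequence of the 10 genes, 6864 bases. Its level was 6.11, 8.86 and 7.04 CPM in mutant libraries and 9.34, 8.71 and 10.8 CPM in N2 libraries. Mutant replicate 2 was within the N2 range and the other mutant libraries were below it. Its log2 fold change was -0.39 (SE 0.16, 95% interval -0.77 to -0.01), with an edgeR p of 0.0454 and an adjusted p of 0.202. After the length correction the log2 fold change was -0.03, with an adjusted p of 0.907, and without mutant replicate 1 it was -0.27. *unc-13* was the member that the length correction moved the most. The transcripts are not separated in these counts.

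*rab-3* (WBGene00004267, chromosome II: 5721767-5727853, minus strand) encodes the vesicle-bound Rab GTPase that helps bring vesicles to release sites. It had 3.37, 3.81 and 4.42 CPM in mutant libraries, against 6.28, 5.18 and 5.32 CPM in N2 libraries, so that every mutant library was below every N2 library. Its log2 fold change was -0.53 (SE 0.16, 95% interval -0.90 to -0.17), with an edgeR p of 0.0095 and an adjusted p of 0.0926. The value was -0.52 after the length correction (adjusted p = 0.0743), and it lay between -0.64 and -0.44 with single libraries left out. Its exons share 110 bases with those of neighbouring genes. These are *damt-1* on the opposite strand (25 bases; 31.4 ± 2.53 CPM in mutants and 27.6 ± 1.97 CPM in N2), the noncoding RNA gene *C18A3.16* on the opposite strand (85 bases) and the noncoding RNA gene *C18A3.18* on the same strand (80 bases). *unc-64* shares 64 bases with *set-25* on the opposite strand, and strand was not used in counting.

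**Figure D3:**
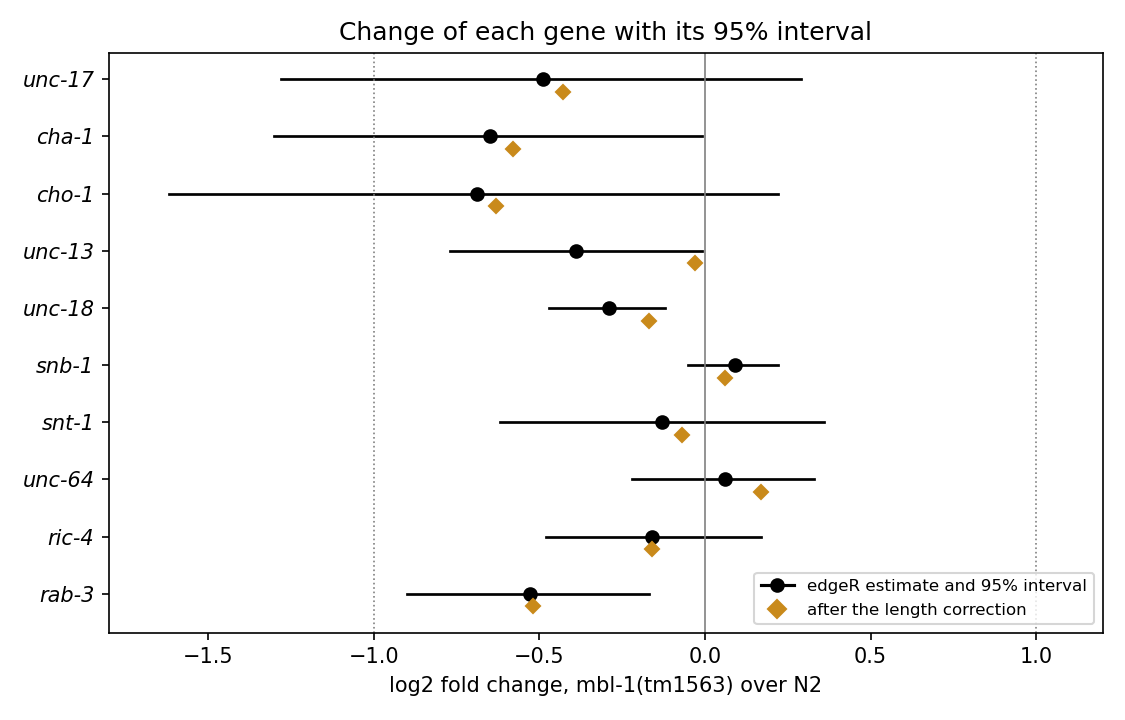
Log2 fold change of each of the 10 genes in mutants over N2 (horizontal axis), with edgeR estimates and 95% intervals in black and the estimates after the length correction in orange; dotted lines mark a 2-fold change. The intervals of *cha-1*, *unc-13*, *unc-18* and *rab-3* lie below 0, and the length correction moves *unc-13* from -0.39 to -0.03.

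Of the 10 genes, *cha-1*, *unc-18* and *rab-3* were lower in all mutant libraries than in any N2 library, beside 17.9% of all genes tested. With 3 libraries against 3, the smallest two-sided p that an exact permutation test can give is 0.1, and these genes and *snb-1* had that value. The median deviation of the 10 genes from their own 6-library means was -0.13, -0.02 and -0.14 in the mutant libraries, against 0.16, 0.09 and 0.14 in the N2 libraries, on the log2 scale. Pairs of members did not move together as a rule, with a median Pearson's r of 0.09 over the 45 pairs and a range of -0.80 to 0.98 over the 6 libraries. The genes closest to the median profile were *C30G4.4*, *hum-5*, *rpl-38*, *C28H8.3* and *rps-17*, with root mean square distances of 0.028 to 0.039 on the log2 scale over 6 libraries, and none of them passed the adjusted p.

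Around these 10 genes, 7 lists of related genes held 122 members. At an edgeR adjusted p under 0.05, 3 of the tested members fell (2.88%) and 1 rose (0.962%), against 3.58% and 1.77% of all genes. None of the 9 tested genes of acetylcholine breakdown and choline handling passed, with a median log2 fold change of -0.30 beside -0.04 over all genes, and of -0.22 after the length correction. The esterase gene *ace-2*, whose product breaks down acetylcholine in the synapse, had 3.36 ± 0.834 CPM in mutants and 6.04 ± 0.935 CPM in N2 (SD, n = 3 each), a log2 fold change of -0.85 (SE 0.21, adjusted p = 0.063). Its adjusted p was 0.0397 after the length correction, 0.0398 without mutant replicate 1 and 0.02 without mutant replicate 2. Without mutant replicate 3 or any N2 replicate it was 0.0871 to 0.215. The related esterase gene *ace-1* had 3.63 ± 0.823 CPM in mutants and 5.55 ± 0.8 CPM in N2, a log2 fold change of -0.62 (SE 0.20, adjusted p = 0.115). It was -0.75 with an adjusted p of 0.037 without mutant replicate 2. With any other single library left out, the adjusted p of *ace-1* was 0.122 to 0.328.

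None of the 20 tested partners of the release machinery passed, with a median log2 fold change of -0.12, which was 0.01 after the length correction, with 9 in place of 16 estimates negative. The lowest p among them belonged to *tom-1*, encoding tomosyn, which inhibits SNARE assembly, at 11.5 ± 1.24 CPM in mutants and 15.2 ± 1.26 CPM in N2 (log2 fold change -0.40, edgeR adjusted p = 0.103), and *unc-31*, the dense-core vesicle release factor CAPS, followed at -0.41 (adjusted p = 0.289). After the length correction *tom-1* was -0.15 (adjusted p = 0.403) and *unc-31* was -0.11 (adjusted p = 0.783). None of the 15 tested vesicle endocytosis and recycling genes passed either, at a median of -0.10, and of -0.04 after the length correction. Among them *amph-1*, encoding amphiphysin, had a log2 fold change of -0.16 (adjusted p = 0.214; -0.10 after the length correction) and *apa-2*, encoding an adaptor subunit, -0.35 (adjusted p = 0.227). *apa-2* was -0.49 (adjusted p = 0.0261) without mutant replicate 2, -0.19 (adjusted p = 0.191) without mutant replicate 1 and -0.21 (adjusted p = 0.172) after the length correction.

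All 19 genes of the G protein pathways that set the rate of acetylcholine release were tested, and 18 estimates were negative, with a range of -0.58 to 0.01 and a median of -0.28, beside 55.2% negative and a median of -0.04 over all genes. These are long genes, with a median exon length of 3754 bases against 1439 bases over all genes tested, and after the length correction 14 were negative and the median was -0.16. *pkc-2*, encoding a protein kinase C, was the 1 that passed, beside 3.58% of all genes lower, at 23.1 ± 0.0997 CPM in mutants and 30.3 ± 1.2 CPM in N2 (log2 fold change -0.39, SE 0.08, edgeR adjusted p = 0.0328). Its call was not kept after the length correction, which gave -0.15 and an adjusted p of 0.432, or without mutant replicate 3 or any N2 replicate (adjusted p 0.107 to 0.168). Of the 8 tested genes that make or load other transmitters, 2 fell, beside 3.58% of all genes lower. *bas-1*, encoding the aromatic amino acid decarboxylase of serotonin and dopamine synthesis, averaged 11.8 ± 0.236 CPM in mutants and 19.5 ± 0.409 CPM in N2 (log2 fold change -0.73, SE 0.09, edgeR adjusted p = 0.00544), and it passed with any single library left out. *cat-4*, encoding GTP cyclohydrolase, which makes the cofactor for serotonin and dopamine synthesis, averaged 26.6 ± 1.09 CPM in mutants and 37.7 ± 3.76 CPM in N2 (-0.50, SE 0.10, adjusted p = 0.0283), and its adjusted p was 0.0747 to 0.136 without mutant replicate 3 or any N2 replicate.

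The paralogs and other SNARE-family genes had a median of 0.11 over 27 tested, with 18 positive estimates, and a median of 0.02 without mutant replicate 1. Strains did not overlap for 6 that were lower in mutants and 5 that were higher, beside 17.9% and 14.7% of all genes. Of the 9 negative estimates, the synaptotagmin paralogs *snt-4* (-0.67, edgeR adjusted p = 0.0591) and *snt-6* (-0.99, adjusted p = 0.0592) had the lowest p. *snap-29*, a SNAP-25 relative of general membrane traffic, was the 1 that rose, beside 1.77% of all genes higher, at 119.3 ± 5.21 CPM in mutants and 94.4 ± 3.49 CPM in N2 (log2 fold change 0.34, SE 0.07, edgeR adjusted p = 0.0305), although its adjusted p was 0.0829 to 0.16 without mutant replicate 3 or any N2 replicate. After the length correction, 2 of the paralogs and SNARE-family genes passed the adjusted p lower and 2 higher. None of the 6 tested transcription factors of cholinergic or neuronal fate passed, at a median of -0.13, and of -0.06 without mutant replicate 1. The lowest p belonged to *unc-86* and *ceh-14*, at -0.57 (edgeR adjusted p = 0.312) and -0.45 (adjusted p = 0.41). The 1 positive estimate was that of *unc-3*, at 0.51 (edgeR adjusted p = 0.422), with 0.951 ± 0.385 CPM in mutants and 0.656 ± 0.121 CPM in N2.

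**Figure D4:**
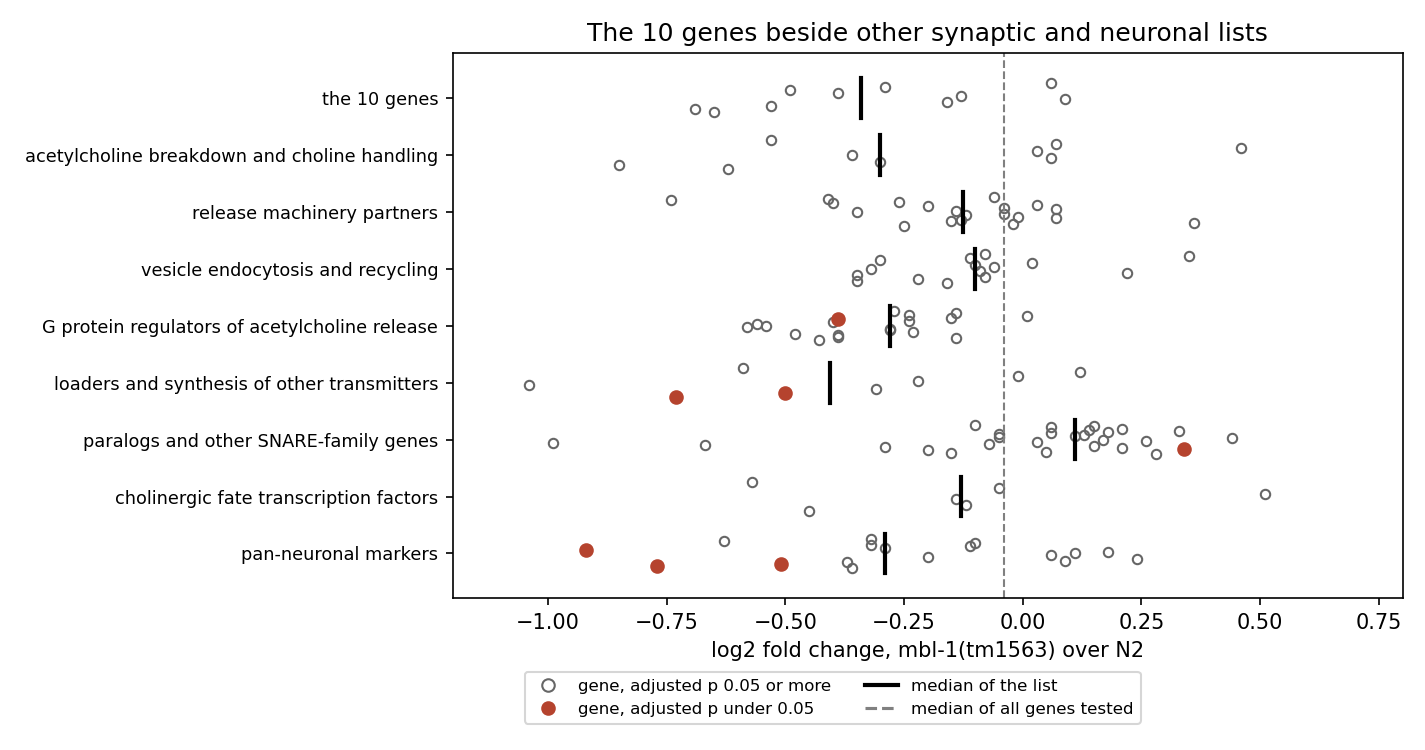
Log2 fold change in mutants over N2 (horizontal axis) for each tested gene of the 10-gene set, the related lists and the pan-neuronal markers (rows), with filled points for genes at an adjusted p under 0.05 and bars for list medians. The 10 genes lie around a median of -0.34, and the filled points are *pkc-2*, *bas-1*, *cat-4*, *snap-29* and 3 pan-neuronal markers.

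Markers of cell types are given because neuronal transcripts were measured in whole animals. Of 17 pan-neuronal markers tested, 3 fell (17.6%) and 0 rose, beside 3.58% of all genes lower and 1.77% higher. Estimates were negative for 12 and positive for 5, with *rgef-1* at 0.09 (edgeR adjusted p = 0.879) and *ric-19* at 0.24 (adjusted p = 0.431). The median log2 fold change of the 17 markers was -0.29, beside -0.04 over all genes. It was -0.14 both after the length correction and without mutant replicate 1. The 3 that fell were *unc-104*, *egl-3* and *ida-1*. The kinesin gene *unc-104*, whose product carries synaptic vesicles along axons, had 6.17 ± 0.648 CPM in mutants and 11.7 ± 1.11 CPM in N2 (log2 fold change -0.92, SE 0.13, edgeR adjusted p = 0.0104). *egl-3*, a neuropeptide-processing convertase, was at -0.77 (adjusted p = 0.0389), and *ida-1*, a dense-core vesicle protein, at -0.51 (adjusted p = 0.0476). The summed level of the pan-neuronal markers was 1380 to 1680 CPM in mutant libraries and 1570 to 1670 CPM in N2 libraries, so the sums overlapped. That sum was mostly *tbb-1*, a tubulin gene with 895 ± 27 CPM in mutants and 827 ± 49 CPM in N2. Without *tbb-1*, a choice made after seeing the data, the sums were 471, 762 and 624 CPM in mutant libraries and 785, 792 and 813 CPM in N2 libraries. Every mutant library was then below every N2 library, with mutant replicate 1 the lowest. The largest part left was *maco-1*, at 177 ± 61.5 CPM in mutants and 229 ± 9.83 CPM in N2, where the strains overlapped. Next were *unc-116*, at 157 ± 26.3 and 192 ± 1.65 CPM, and *unc-44*, at 72.4 ± 28.5 and 112 ± 4.3 CPM. These sums were not corrected for length, and they hold long genes such as *unc-44*, with 22946 exon bases. Whether the sums follow neuronal content was not tested. They are a description only. *unc-104* was -0.61 after the length correction (adjusted p = 0.0392), and it was at an adjusted p of 0.0576 without mutant replicate 3 and 0.058 without N2 replicate 1, and *egl-3* and *ida-1* lost the call without mutant replicate 3 or any N2 replicate (adjusted p 0.115 to 0.191). *ida-1* also lost it without mutant replicate 2 (0.0614) and after the length correction (-0.39, adjusted p = 0.119).

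Body wall muscle, the target of the cholinergic motor neurons, had 2 of 10 markers lower, beside 3.58% of all genes, *myo-3* (-0.65, edgeR adjusted p = 0.0145) and *unc-54* (-0.58, adjusted p = 0.0438), both encoding myosin heavy chains. The summed level of the 10 markers was 757 to 1050 CPM in mutant libraries and 1140 to 1280 CPM in N2 libraries, which did not overlap. This sum was not corrected for length, and it holds long genes such as *unc-22* and *unc-89*, with 23368 and 25942 exon bases. The median of the 10 markers was -0.53, and -0.21 after the length correction. After it *myo-3* was -0.29 (adjusted p = 0.219) and *unc-54* was -0.24 (adjusted p = 0.0871). Without mutant replicate 3, N2 replicate 1 or N2 replicate 3 both lost the call (adjusted p 0.0839 to 0.184), and without N2 replicate 2 *unc-54* did (0.115). Against the same 3.58% of all genes, 1 of 9 intestine markers was lower, *mtl-2*, encoding a metallothionein (-1.15, edgeR adjusted p = 0.00306), and the sums were 1340 to 1810 CPM in mutant libraries and 1810 to 1880 CPM in N2 libraries. The median of the 9 intestine markers was -0.20, and -0.11 without mutant replicate 1. Of the hypodermis markers 1 of 8 was lower, *elt-3*, encoding a GATA factor (-0.67, edgeR adjusted p = 0.0283), with sums of 386 to 446 CPM in mutant libraries and 441 to 482 CPM in N2 libraries. The 8 markers had 5 negative and 3 positive estimates, with *rol-6* at 1.18 (adjusted p = 0.265). Their median was -0.02, and 0.12 without mutant replicate 1. The adjusted p of *elt-3* was 0.0965 to 0.126 without mutant replicate 3 or any N2 replicate. None of 12 germline markers passed, *puf-5* at 0.30 (adjusted p = 0.187) and *glh-1* at -0.14 (adjusted p = 0.239; -0.01 after the length correction) having the lowest p, and their sums overlapped at 8280 to 12900 CPM in mutant libraries and 10800 to 11700 CPM in N2 libraries. *puf-5* was 0.41 with an adjusted p of 0.00712 without mutant replicate 1, and 0.37 with an adjusted p of 0.0408 after the length correction. With any other single library left out its adjusted p was 0.124 to 0.434. The median of the 12 germline markers was -0.09, and 0.05 without mutant replicate 1. The part of cell-type content in the values of the 10 genes was not tested.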

How the data were processed

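Stranded poly(A) libraries were sequenced by the authors, who aligned the reads to WBcel235 (STAR), counted them per gene ignoring strand (HTSeq) and deposited the raw counts of each library; versions are not given in the sources used here. The 5 HTSeq totals of reads on no gene were kept out of library sizes; they made up 8.87 to 9.60% of reads in mutants and 11.0 to 11.2% in N2. Gene symbols, positions and exon lengths came from the Ensembl WBcel235 annotation, which held 99.2% of the gene identifiers. Genes were filtered with filterByExpr (minimum count 10, minimum total 15), scaled by TMM and tested with edgeR 4.0.16 in R 4.3.3 (robust quasi-likelihood, strain as the only term), with Benjamini-Hochberg adjustment over 12335 genes. No pair of libraries agreed within sampling noise (smallest chi-square per degree of freedom 3.84). Levels per kilobase used exon bases not shared with another gene. The length correction added offsets from a lowess curve (span 0.5) of log2 CPM deviations on log2 exon length. DESeq2 1.42.0, other scalings and filters, a replicate block, non-robust estimation and single libraries left out were tried as alternatives, and the fit was tested on simulated data. Same-numbered libraries correlated at 0.111, 0.008 and 0.130 in their deviations, and differently numbered ones at -0.158 to 0.088. The numbers were not taken as pairs in the main fit, and the replicate block is the alternative that uses them.

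The members, the lists of related genes and the marker lists (193 symbols, of which 5 were not matched) were chosen with earlier results of these data known. Named genes were *mbl-1*, all members, in each list the genes past the adjusted p (or the 2 with the lowest p where none passed), the 5 genes nearest the members' median pattern, and genes whose exons overlap those of a member. A few other list genes were named beside these, to show the spread of a list or the largest parts of a sum.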

Additional observations from a re-analysis of the deposited data

Results flagged for a closer look

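Reads that overlapped more than 1 gene, which were in no gene's count, made up 0.952 ± 0.0668% of the reads in mutant libraries and 0.824 ± 0.00289% in N2 libraries (SD, n = 3 each); these totals are outside the comparison of genes, and all 3 mutant libraries were above all 3 N2 libraries. Reads outside annotated genes made up 0.548 ± 0.029% in mutant libraries and 0.494 ± 0.027% in N2 libraries, also higher on average in mutants. Reads that did not align uniquely differed the other way, at 7.83 ± 0.422% in mutant libraries and 9.81 ± 0.0651% in N2 libraries. Among the 10 genes, reads that overlap more than 1 gene can touch *unc-17*, *cha-1*, *unc-64* and *rab-3*, whose exons overlap those of other genes, and their part in these values was not tested.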

How the results depend on the processing

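None of the 10 genes was called at 2-fold under any of the 16 alternatives, and 153 of 158 alternative values of their log2 fold changes kept both direction and side of the adjusted p. The exceptions were *unc-18*, which passed without mutant replicate 1 or 2 (0 to 1 members lower with single libraries left out), and sign changes of *snt-1* (-0.27 to 0.04 with single libraries left out, 0.02 without mutant replicate 2, 0.04 without N2 replicate 1) and *unc-64* (-0.03 without N2 replicate 3). *C28H8.3* turned to 0.13 with the length correction and 0.12 with the replicate block and length correction. *unc-17* and *cho-1* could not be tested where 10 counts were required in every library. Counts over all genes moved more: genes called at 2-fold numbered 31 to 134 higher and 54 to 234 lower with single libraries left out, against 84 and 141. At the adjusted p alone, 218 were higher, against 419 with DESeq2, 366 with no filter, 112 with the replicate block, 503 with the length correction, 372 with both and 36 to 896 with single libraries left out; 442 were lower, against 270 with the replicate block and 75 to 1090 with single libraries left out. Of the related genes tested, 1 was higher (0 with the replicate block, 2 with the length correction, 2 with both, 0 to 4 with single libraries left out) and 3 were lower (5 with DESeq2, 1 with library size alone, 1 with the replicate block, 5 with the length correction, 1 to 18 with single libraries left out). With the replicate block, *mbl-1* was -1.18 with an adjusted p of 0.0551 and *pkc-2*, *cat-4*, *snap-29*, *egl-3*, *ida-1*, *myo-3*, *unc-54* and *elt-3* also lost the call (adjusted p 0.053 to 0.0784); it changed no call of the 10 genes. With library size alone *pkc-2* (0.106), *cat-4* (0.0812) and *ida-1* (0.123) lost it, *ida-1* also with RLE scaling (0.06), upper quartile scaling (0.073) and no filter (0.059), and *pkc-2* also with no filter (0.0713). The causes of these changes were not tested. Few reads limit *unc-17*, *cha-1* and *cho-1*, and counts per gene cannot show changes of splicing.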
